A study of Homo sapiens with 9 samples.

Results

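The genes described here are the human amino acid transporters of 7 solute carrier families. Members were all genes whose symbol names a numbered gene of SLC1A, SLC3A, SLC6A, SLC7A, SLC36A, SLC38A or SLC43A on a primary chromosome. This rule took 59 of the 23430 genes in the deposited tables, held in 83 transcript rows, and used no measured value. By family there were 7 members of SLC1A, 2 of SLC3A, 19 of SLC6A, 13 of SLC7A, 4 of SLC36A, 11 of SLC38A and 3 of SLC43A.

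Amino acids cross the plasma membrane on carriers that differ in substrate and driving force. SLC1A, SLC6A and SLC38A carriers mostly use the sodium gradient, SLC36A carriers use protons, and the SLC7A light chains are mainly exchangers that reach the cell surface only when bound to a heavy chain of the SLC3A family. SLC7A5 bound to SLC3A2 (CD98) brings in leucine and other large neutral amino acids in exchange for glutamine, and SLC7A11 bound to SLC3A2 brings in cystine in exchange for glutamate. Amino acid levels are sensed by mTORC1, the growth kinase at the lysosome, and by GCN2, a kinase whose signal raises the translation of the transcription factor ATF4. ATF4 is known to drive several of these transporters, among them SLC7A11, SLC7A5 and SLC3A2. In squamous epithelia such as the esophageal lining and the epidermis, CD98 is a known surface protein of the proliferating basal layer.

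RNA was measured in EPC2, a human esophageal epithelial line immortalised with telomerase reverse transcriptase, in 3 groups of 3 libraries. The ALI control libraries came from cells with a non-silencing control (NSC) that were differentiated at an air-liquid interface (ALI). The ALI silenced libraries came from cells with SPINK7, a serine protease inhibitor gene of squamous epithelium, silenced and differentiated in the same way, and the monolayer libraries came from NSC cells left undifferentiated. Medium of all groups held EGF, a growth factor for epithelial cells, at 1 ng/mL, and bovine pituitary extract at 50 ug/mL. ALI cells were confluent in 0.09 mM calcium, moved to 1.8 mM calcium on day 2, opened to air on day 7 and harvested on day 14. No calcium level or harvest day is given here for the monolayer. Effects of calcium, air, time in culture and differentiation itself therefore cannot be told apart. Below, differentiation names the whole comparison of ALI control with monolayer. The labels describe 1 line and 1 silenced population, so loss of SPINK7 and other effects of the silencing cannot be told apart. File names and labels of the ALI libraries disagree on the day and on some numbers, and the labels are used here. Whether the 3 libraries of each group were grown as separate cultures is not in the labels. The p-values therefore rest on library-to-library spread that could be purely technical.

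Libraries held 7641960 to 14009746 counts. SPINK7 was at 239 ± 19.4 CPM (counts scaled to a common library size, mean ± SD, n = 3) in the ALI control, 30.7 ± 9.00 CPM in the ALI silenced and 0.488 ± 0.267 CPM in the monolayer libraries. The 8 squamous markers summed to 62240, 31550 and 77480 CPM in the ALI control, 81330, 42840 and 69110 CPM in the ALI silenced and 25840 to 26580 CPM in the monolayer libraries. Silencing changed 1 of the 8, KRT4, at 379 to 676 CPM in the ALI control and 107 to 161 CPM in the ALI silenced libraries (log2 difference -1.98, edgeR adjusted p 0.0138). The median log2 fold change of the 8 was 0.07. Summed leukocyte markers reached at most 1.26 CPM, with PTPRC at 0 in all libraries, and summed melanocyte markers at most 3.28 CPM, with TYR and DCT at 0. Summed endothelial markers, nearly all VWF, were at 1.40 to 9.62 CPM in ALI and 0.304 to 0.567 CPM in monolayer libraries. Summed fibroblast markers, nearly all COL1A1, were at 11.6 to 48.3 CPM in ALI and 49.5 to 185 CPM in monolayer libraries, with LUM at 0. Summed neuron and glia markers, mostly SYT1, were at 4.86 to 10.8 CPM in ALI and 20.4 to 24.6 CPM in monolayer libraries, with SNAP25 at 0. The part of these genes in any result was not tested. In these bulk libraries, fewer cells of a type and less RNA per cell cannot be told apart.

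The ALI libraries numbered 2, 1 in each arm, stood apart from the other 4 ALI libraries: on the second principal component, which held 14% of the variance in log2 CPM, they lay at -78.5 and -25.5 and the other 4 at 14.3 to 55. Results that rest on these libraries are given with and without them.

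The promoters of 3 genes are shown because these members carried much of the difference between monolayer and ALI libraries: SLC7A5 and SLC38A5, which fell, and SLC6A14, which rose. Each is the 250 bases before the gene start in RefSeq (GRCh38.p14), 5′ to 3′ on the gene's strand. The regions are chr16:87869508-87869757 (minus strand) for SLC7A5, chrX:48470261-48470510 (minus strand) for SLC38A5 and chrX:116436356-116436605 (plus strand) for SLC6A14. Capitals mark a CACGTG, the E-box read by MYC and by the lysosomal factors TFEB and TFE3.
SLC7A5: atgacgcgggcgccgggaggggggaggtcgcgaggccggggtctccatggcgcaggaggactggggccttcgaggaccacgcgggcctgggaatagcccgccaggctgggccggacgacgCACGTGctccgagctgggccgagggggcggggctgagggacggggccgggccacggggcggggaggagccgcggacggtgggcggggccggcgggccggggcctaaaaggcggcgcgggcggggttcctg
SLC38A5: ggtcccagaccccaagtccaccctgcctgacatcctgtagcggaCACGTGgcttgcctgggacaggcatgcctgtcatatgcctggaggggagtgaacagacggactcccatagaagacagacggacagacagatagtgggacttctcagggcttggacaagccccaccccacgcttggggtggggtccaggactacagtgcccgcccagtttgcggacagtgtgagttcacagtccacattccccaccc
SLC6A14: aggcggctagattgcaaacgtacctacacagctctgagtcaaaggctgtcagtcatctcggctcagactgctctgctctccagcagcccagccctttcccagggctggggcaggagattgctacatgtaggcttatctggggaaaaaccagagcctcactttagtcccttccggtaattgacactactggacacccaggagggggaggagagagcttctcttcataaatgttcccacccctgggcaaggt

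RefSeq promoters were matched for 44 of the 59 members and 23 of the 30 members that could be tested. The tested members SLC7A11, SLC38A3, SLC43A3, SLC6A6, SLC6A15, SLC7A2 and SLC7A4 had no matched promoter, so no motif was searched for them. Motifs were searched on both strands in the 250 bases before the gene start. CACGTG lay 130 to 125 bases before the SLC7A5 start and 206 to 201 bases before the SLC38A5 start, and the SLC6A14 window held none of the motifs searched. CACGTG was found in 5 of 44 member promoters (11.4%) and in 6.49% of all 27305 promoters. Among tested members it was in 2 of 23 (8.7%), SLC7A5 and SLC38A5. The windows of SLC38A4, SLC38A7, SLC38A10, SLC43A2 and SLC6A8, which also fell from monolayer to ALI control, held no CACGTG. TGATGNAA, a form of the amino acid response element, was in 1 of 44 member promoters (2.27%), that of SLC1A3, and in 3.19% of all promoters. TGACNNNGC, the antioxidant response element core, was in 4 of 44 (9.09%), those of SLC3A2, SLC7A1, SLC7A6 and SLC7A7, and in 11.0% of all promoters. A match is a run of letters and not a measured binding site. The RefSeq starts of SLC7A5, SLC38A5 and SLC6A14 lie within 19 bases of an annotated transcript start. Those of SLC1A3 and SLC3A2 do not coincide with the start of their main coding transcripts, so their windows are not shown.

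Of the 59 members, 30 had enough counts to be tested and 29 did not. Among the 29, 12 had no count in any library: SLC1A2, SLC1A6, SLC1A7, SLC36A3, SLC38A11, SLC6A3, SLC6A12, SLC6A18, SLC6A19, SLC7A3, SLC7A10 and SLC7A13. A group without counts allows up to 0.121 CPM in the ALI control, 0.0888 CPM in the ALI silenced and 0.0898 CPM in the monolayer group (3 counts over the group, counting error only). The other 17 had 1 to 44 counts over the 9 libraries and at most 0.943 CPM as a group mean, among them SLC1A1, SLC3A1, SLC43A1, SLC6A2, SLC6A4, SLC6A17, SLC6A20, SLC7A7 and SLC7A9. SLC3A1, the heavy chain of kidney and intestine, had 1 count in all, so SLC3A2 was the heavy chain detected. The SLC6A carriers of dopamine (SLC6A3), serotonin (SLC6A4) and noradrenaline (SLC6A2) were among the members not tested.

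Member counts made up 0.377 to 0.773% of a library. SLC7A5, SLC38A2, SLC38A1, SLC3A2 and SLC7A1 held 73.9 to 81.6% of the summed member CPM in each library. Summed over all 59 members, the level was 4482, 6613 and 3936 CPM in the ALI control, 5431, 6954 and 4523 CPM in the ALI silenced and 7114, 5810 and 5568 CPM in the monolayer libraries, in the order of their numbers. The groups overlapped, and the highest ALI sum of each arm was that of the library numbered 2.

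**Figure D1:**
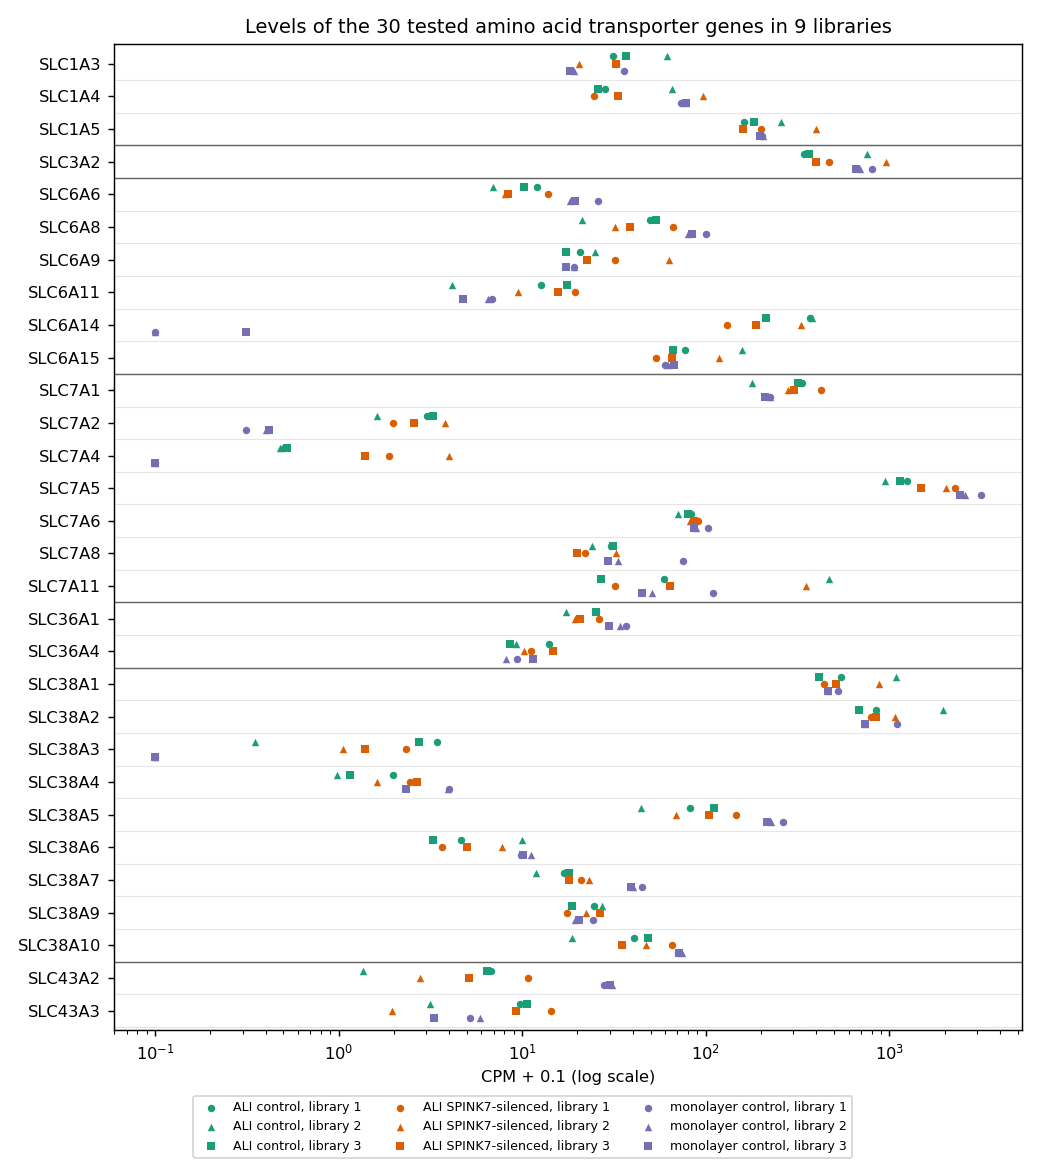
CPM of the 30 tested members in each of the 9 libraries, plotted as CPM + 0.1 on a log scale, by family, with 1 point per library, colour by group and shape by library number. SLC7A5 lies highest in the monolayer libraries at 2417 to 3160 CPM, and SLC6A14 lies at 131 to 377 CPM in the ALI libraries and at or near 0 in the monolayer libraries.

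Per length, on the RPKM scale, SLC7A5 led in the ALI control group at a level of 195 ± 38.7 (SD, n = 3), followed by SLC3A2 at 190.1 ± 77.0 and SLC38A2, a sodium-coupled carrier of alanine, glutamine and other small neutral amino acids, at 183.5 ± 94.3. These 3 did not differ beyond their spread. Next by RPKM level came SLC38A1, a close relative of SLC38A2, at 64.7 ± 28.98, the glutamine exchanger SLC1A5 at 55.4 ± 10.5, and SLC6A14 at 55.3 ± 14.85. These too did not differ beyond their spread. In the monolayer group the RPKM order was clearer, with SLC7A5 at 538 ± 73.7, SLC3A2 at 330.4 ± 32.0, SLC38A2 at 158 ± 37.2, the glutamine and histidine carrier SLC38A5 at 106 ± 10.7, SLC1A5 at 63.3 ± 1.11 and SLC38A1 at 52.7 ± 3.69, and no 2 neighbours in this order overlapped in any library. In the ALI silenced group SLC7A5 stood at 366 ± 73.7 RPKM, SLC3A2 at 262 ± 141 and SLC38A2 at 160.1 ± 28.7.

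Differentiation at the ALI (ALI control minus monolayer) changed 12 of the 30 tested members, or 40%, at an adjusted p under 0.05 in edgeR's quasi-likelihood test, against 40.5% of all 12806 genes tested. The share was near that of all genes. Of the members, 4 rose (13.3%, against 20.3% of all genes) and 8 fell (26.7%, against 20.2%). The median log2 fold change of the 30 members was 0.06, beside 0.03 over all genes, with 15 members above 0 and 15 below. In every library, 4 members were higher in the ALI control than in the monolayer group (13.3%, against 27.3% of all genes) and 11 were lower (36.7%, against 29.9%).

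The light chain SLC7A5 (hg19 chr16:87863629-87903100, minus strand) was the most abundant member that fell. It was at 3160, 2581 and 2417 CPM in the monolayer libraries and at 1240, 944 and 1137 CPM in the ALI control libraries. All 3 monolayer libraries were above all ALI control libraries. The log2 fold change was -1.30 (SE 0.268, 95% interval -1.95 to -0.64, adjusted p 0.00386), and this call was kept under all 19 other settings tried. Reads of the near-identical pseudogenes SLC7A5P1 and SLC7A5P2 came to 17 and 39 counts over the 9 libraries.

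Some carriers of glutamine and of large neutral amino acids were also among those that fell. Other carriers of such substrates did not fall. The glutamine carrier SLC38A3 and the neutral amino acid carrier SLC6A14 rose, and SLC38A2 and SLC1A5 did not pass the test. SLC43A2, a sodium-independent carrier of leucine, phenylalanine and methionine, was at 27.7, 30.7 and 29.8 CPM in the monolayer and at 6.70, 1.26 and 6.34 CPM in the ALI control libraries. Its log2 fold change was -2.62 (SE 0.584, adjusted p 0.00585), and the lowest value was that of ALI control library 2. SLC38A5 was at 264, 227 and 216 CPM in the monolayer and at 81.4, 44.5 and 111 CPM in the ALI control libraries, which gave a log2 difference of -1.58 (SE 0.357, adjusted p 0.00626). SLC38A7, known for carrying glutamine out of lysosomes, was at 44.9, 40.1 and 38.8 CPM in the monolayer and at 16.9, 11.9 and 17.9 CPM in the ALI control libraries, which gave a log2 difference of -1.41 (SE 0.219, adjusted p 0.000827). For SLC43A2, SLC38A5 and SLC38A7 the groups did not overlap, and the calls were kept under the 19 other settings.

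The other 4 members that fell were smaller in change or less firm. SLC6A6, the taurine carrier, was at 25.9, 18.0 and 19.3 CPM in the monolayer and at 11.9, 6.81 and 10.2 CPM in the ALI control libraries, and the log2 difference was -1.13 (SE 0.300, adjusted p 0.0137). Its adjusted p was 0.059 without monolayer library 1. SLC6A6 overlaps GRIP2 on the opposite strand, which had 62 counts against 1296 of SLC6A6. SLC6A8, the creatine carrier, was at 100.2, 79.5 and 84.0 CPM in the monolayer and at 49.8, 21.1 and 53.4 CPM in the ALI control libraries, and the log2 difference was -1.08 (SE 0.370, adjusted p 0.0395). SLC38A10 was at 70.6, 73.9 and 71.6 CPM in the monolayer and at 40.7, 18.5 and 48.2 CPM in the ALI control libraries, and the log2 difference was -1.01 (SE 0.342, adjusted p 0.039). Neither call held when certain single libraries were left out. The adjusted p of SLC6A8 was 0.0578 without ALI control library 1, 0.0583 without ALI control library 2, 0.0597 without ALI silenced library 3, and 0.116, 0.0782 and 0.084 without monolayer library 1, 2 or 3. That of SLC38A10 was 0.0658 without ALI control library 1, 0.0522 without ALI silenced library 2, and 0.0895, 0.103 and 0.0934 without monolayer library 1, 2 or 3. SLC38A4, a sodium-coupled carrier at low level here, was at 3.90, 3.85 and 2.24 CPM in the monolayer and at 1.88, 0.883 and 1.06 CPM in the ALI control libraries, and the log2 difference was -1.39 (SE 0.427, adjusted p 0.0257). Its adjusted p was 0.0655 without ALI control library 2, 0.0726 without ALI control library 3, and 0.0775 or 0.088 without monolayer library 1 or 2.

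SLC6A14 (hg19 chrX:115567747-115592625, plus strand), a sodium- and chloride-driven carrier of neutral and cationic amino acids, was the member with the widest difference. It was at 370, 377 and 212 CPM in the ALI control libraries and at 131, 331 and 188 CPM in the ALI silenced libraries, with 0, 0 and 0.213 CPM in the monolayer libraries. Every ALI library was far above every monolayer library. The ALI control group held 7765 counts and the monolayer group 2, a ratio of 5220 with an exact Poisson interval of 1440 to 43100 that covers counting error only (adjusted p 3.2e-06). Its RPKM level ranked 6 among all members in the ALI control group.

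The 3 other members that rose were at low levels. SLC38A3, a glutamine carrier of liver and brain, was at 3.35, 0.252 and 2.64 CPM in the ALI control and had no count in the monolayer libraries. Its ALI control level was 23.3 times that of 3 counts over the monolayer group (edgeR adjusted p 0.00523). SLC7A2, a carrier of arginine and other cationic amino acids, was at 2.95, 1.51 and 3.17 CPM in the ALI control and at 0.212, 0.304 and 0.319 CPM in the monolayer libraries, and the log2 difference was 3.17 (SE 0.509, adjusted p 0.000985). SLC7A4, a relative of the cationic carriers, was at 0.402, 0.378 and 0.423 CPM in the ALI control and had no count in the monolayer libraries. Its ALI control level, from 10 counts, was 4.48 times that of 3 counts over the monolayer group (edgeR adjusted p 0.0126). These 2 ratios leave out the counting error of the ALI control. The 2 transcript rows of SLC7A2 held equal counts in several libraries, so its sum may count some reads more than once. For none of these members did the ALI control and monolayer groups overlap. The 3 members drop out of the test under a stricter filter on low counts, as do SLC38A3 and SLC7A4 in a fit of the 2 groups alone, and the adjusted p of SLC7A4 was 0.399 in limma on log2(RPKM + 1), a scale that compresses such low values.

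**Figure D2:**
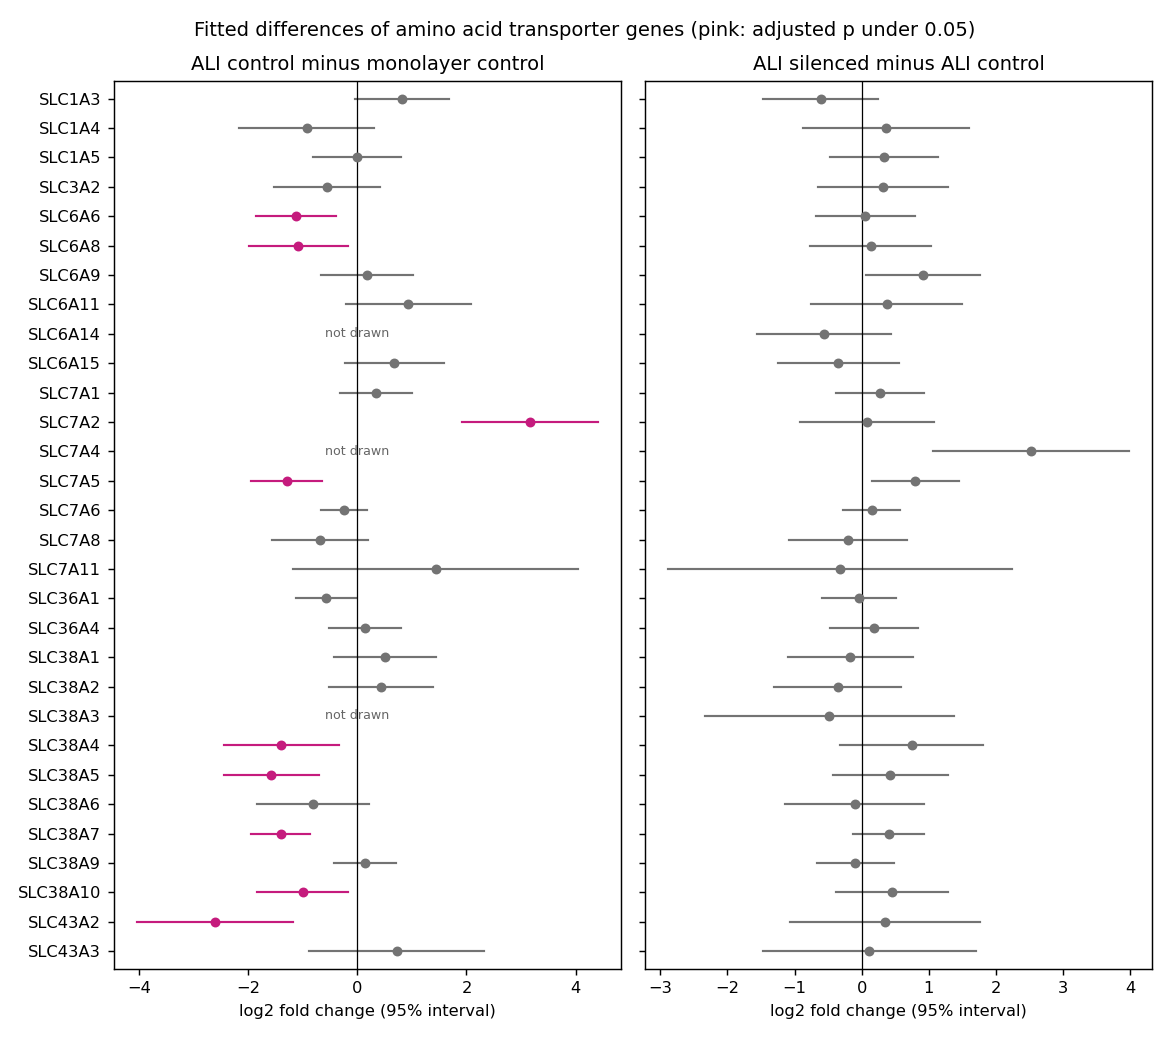
Log2 fold change and 95% interval of the tested members for silencing (ALI silenced against ALI control) and differentiation (ALI control against monolayer), with called members marked. SLC6A14, SLC38A3 and SLC7A4 are not drawn in the differentiation panel because the monolayer group had 3 or fewer counts. No member passed in the silencing panel.

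Several abundant members did not pass the test, and many of these were far apart within the ALI control group. SLC3A2 (hg19 chr11:62623484-62656355, plus strand) was at 344, 755 and 367 CPM in the ALI control and at 799, 690.2 and 662 CPM in the monolayer libraries, which gave a log2 difference of -0.55 (SE 0.396, adjusted p 0.286). ALI control library 2 lay within the monolayer range and the other 2 far below it. SLC38A2 was at 848, 1952 and 681 CPM in the ALI control and at 1097, 736 and 738 CPM in the monolayer libraries, and SLC38A1 at 545, 1093 and 415 CPM against 526, 464 and 460.3 CPM, with overlap in both. SLC1A5 was at 162, 258 and 182 CPM in the ALI control and at 201, 206 and 197 CPM in the monolayer libraries, and the arginine and lysine carrier SLC7A1 at 333, 179 and 317 CPM against 223, 224 and 210 CPM. SLC1A4, an exchanger of alanine, serine and cysteine, was at 27.99, 65.7 and 25.9 CPM against 73.2, 76.8 and 78.2 CPM; the groups did not overlap, but the adjusted p was 0.166.

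The remaining tested members with at least 10 CPM in their highest group gave these levels. SLC43A3, with a highest group mean of 8.43 CPM, is given beside them. SLC7A6, a light chain that exchanges cationic for neutral amino acids, was at 70.9 to 82.6 CPM in the ALI control, 81.6 to 91.01 CPM in the ALI silenced and 86.0 to 103 CPM in the monolayer libraries. SLC7A6 overlaps SLC7A6OS on the opposite strand, which had 1219 counts against 7965 of SLC7A6 over the 9 libraries, and their reads may not be separated. SLC7A8, a related carrier of large and small neutral amino acids, was at 23.8 to 31.3, 19.9 to 32.4 and 29.4 to 75.2 CPM in the same order of groups. SLC6A15, a carrier of branched-chain amino acids and proline, was at 66.3 to 158, 53.3 to 118 and 59.98 to 66.7 CPM. SLC1A3, a glutamate and aspartate carrier, was at 31.1 to 61.6, 20.3 to 32.3 and 18.1 to 35.9 CPM. The lysosomal proton-coupled carrier SLC36A1 was at 17.2 to 25.3, 19.2 to 26.0 and 29.7 to 36.7 CPM, and SLC36A4 at 8.46 to 13.9, 10.2 to 14.6 and 8.10 to 11.4 CPM. SLC38A9, the lysosomal arginine sensor of mTORC1, was at 18.5 to 27.2, 17.5 to 26.3 and 19.3 to 24.3 CPM, with all 3 groups overlapping. SLC6A11, a GABA carrier, was at 4.04 to 17.3, 9.34 to 19.2 and 4.68 to 6.73 CPM. SLC38A6 was at 3.17 to 9.84, 3.55 to 7.69 and 9.70 to 11.1 CPM, and SLC43A3, a carrier of purine bases rather than amino acids, at 3.03 to 10.5, 1.86 to 14.3 and 3.19 to 5.77 CPM. None of these passed the test in the differentiation contrast. SLC43A3 is held in 3 transcript rows with identical counts in every library, so its sum may count the same reads up to 3 times.

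Silencing of SPINK7 (ALI silenced minus ALI control) changed 0 of the 30 tested members at an adjusted p under 0.05, against 0.929% of all genes tested (0.226% higher, 0.703% lower). At an unadjusted p under 0.05 there were 3 members (10%), SLC7A4, SLC7A5 and SLC6A9, against 9.16% of all genes, a share near the background. DESeq2's Wald test called 1 member, SLC7A5, which was higher, and 2.87% of the 14472 genes it tested (0.933% higher, 1.93% lower). The median log2 fold change of the members was 0.14, beside 0.01 over all genes, with 19 of 30 above 0 and 50.6% of all genes above 0. In every library, 2 members were higher in the ALI silenced than in the ALI control group, SLC7A4 and SLC7A5 (6.67%, against 5.76% of all genes), and 0 were lower (against 6.34%).

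SLC7A5 was at 1240, 944 and 1137 CPM in the ALI control and at 2263, 2022 and 1488 CPM in the ALI silenced libraries. All 3 ALI silenced libraries lay above the ALI control libraries and below the monolayer libraries. The log2 fold change was 0.80 (SE 0.265, 95% interval 0.15 to 1.45, unadjusted p 0.0128, adjusted p 0.276), with an adjusted p of 0.0232 in DESeq2 and of 0.157 to 0.831 in the other alternatives. The silencing and differentiation contrasts share the ALI control libraries, so the values of the 3 groups are not independent evidence of an order.

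SLC7A4 was at 0.402, 0.378 and 0.423 CPM in the ALI control and at 1.78, 3.92 and 1.29 CPM in the ALI silenced libraries, from 10 and 87 counts. The groups did not overlap, and the log2 fold change was 2.52 (SE 0.598, unadjusted p 0.00281, adjusted p 0.127). SLC6A9, the glycine carrier, was at 20.5, 25.0 and 17.1 CPM in the ALI control, at 32.0, 63.3 and 22.5 CPM in the ALI silenced and at 19.1, 19.0 and 17.2 CPM in the monolayer libraries. ALI silenced library 3 lay within the ALI control range, and the log2 fold change was 0.92 (SE 0.345, adjusted p 0.383). SLC6A9 overlaps CCDC24, which had 342 counts against 2588 of SLC6A9 over the 9 libraries; whether counting used strand is not given in the sources used here. The log2 fold change of SLC6A14 was -0.56 (SE 0.405, adjusted p 0.716), and that of SLC1A3, the lowest of all members, was -0.61 (SE 0.353, adjusted p 0.658).

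The cystine carrier SLC7A11 (hg19 chr4:139085248-139163503, minus strand) varied most between libraries of 1 group. It was at 59.3, 471 and 26.6 CPM in the ALI control, 31.8, 349 and 63.7 CPM in the ALI silenced and 110, 51 and 44.9 CPM in the monolayer libraries. The library numbered 2 was 10.95 times the mean of the other 2 in the ALI control arm and 7.32 times in the ALI silenced arm. Neither contrast passed: the log2 fold change was -0.32 (SE 1.05, adjusted p 0.936) for silencing and 1.43 (SE 1.07, adjusted p 0.304) for differentiation. Without ALI control library 2 these became 1.79 (adjusted p 0.626) and -0.68 (adjusted p 0.6). The antisense gene SLC7A11-AS1 had 49 counts in all beside 12872 of SLC7A11.

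SLC7A11 was 1 of 8 tested members (26.7%) whose level in both ALI libraries numbered 2 was above that in the other 4 ALI libraries, a pattern of 18.8% of all genes. The others were SLC1A4 (2.44 and 3.35 times the mean of the other libraries of its arm, in the control and the silenced arm), SLC3A2 (2.12 and 2.21 times), SLC1A5 (1.501 and 2.21 times), SLC38A1 (2.28 and 1.83 times), SLC38A2 (2.55 and 1.31 times), SLC38A6 (2.55 and 1.82 times) and SLC6A15 (2.20 and 1.98 times). Another 9 members (30%, against 20.7% of all genes) were below the other 4: SLC38A3, SLC38A5, SLC43A2, SLC43A3, SLC6A6, SLC6A8, SLC6A11, SLC7A1 and SLC36A1. SLC43A3 was lowest in the silenced arm, at 0.158 times the mean of the other 2 libraries. SLC7A5 was in neither set, at 0.794 and 1.08 times. The pattern was noticed in these data and is a description of 2 libraries.

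**Figure D3:**
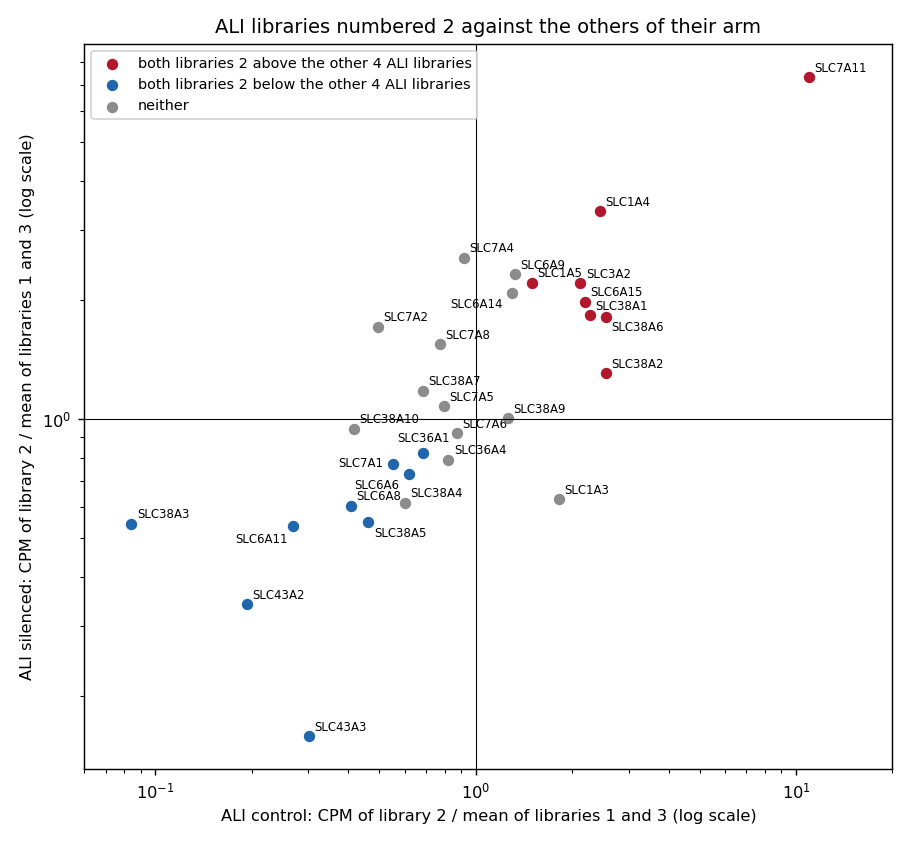
CPM of the ALI library numbered 2 divided by the mean CPM of libraries 1 and 3 of the same arm, for the ALI control arm (x axis) and the ALI silenced arm (y axis), both on log scales, with 1 point per tested member. SLC7A11 lies alone at the upper right, at 10.95 and 7.32 times.

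Genes of the amino acid response, like many other genes, moved with the same libraries. Of 20 genes of the GCN2 and ATF4 response, 14 were above the other 4 ALI libraries in both libraries numbered 2, and their summed level was 1573, 3776 and 1492 CPM in the ALI control, 1509, 3582 and 1665 CPM in the ALI silenced and 1838, 1739 and 1693 CPM in the monolayer libraries. ASNS, the asparagine synthetase, was at 88.9, 739 and 116 CPM in the ALI control and at 54.2, 479 and 84.4 CPM in the ALI silenced libraries. DDIT3, a stress transcription factor, was at 6.30, 72.4 and 5.60 CPM and at 5.42, 42.1 and 9.60 CPM, and ATF4 itself at 232, 580 and 235 CPM and at 185, 520 and 220 CPM. DDIT3 and ATF4 were chosen after their values were seen. Of 10 cell cycle genes, 9 were below in both libraries numbered 2. Their summed levels were 219, 115 and 241 CPM in the ALI control and 495, 69.7 and 475 CPM in the ALI silenced libraries. In the monolayer libraries these sums were 90.9, 127.5 and 125.8 CPM. Of the 8 squamous markers, 5 were below in both: KRT5, KRT14, KRT6A, KRT13 and the envelope protein IVL. Their summed level is given above, and it was lowest in the library numbered 2 of each arm. Of 20 cytosolic tRNA synthetases 12 were above, and of 10 ribosomal protein genes 7 were above. Summed ribosomal levels were 6812, 18560 and 8991 CPM in the ALI control libraries. In the ALI silenced libraries they were closer together, at 7220, 9342 and 7600 CPM. Of all genes, 18.8% were above and 20.7% below in both. In the GCN2 and ATF4 list 2 genes were below, and among the synthetases 3. Of 35 synthesis and breakdown genes 18 were above and 4 below. Of 32 mTORC1 sensing genes 12 were above and 7 below. Of 11 cystine and glutathione genes 3 were above and 0 below, and of 13 carriers outside the 7 families 1 was above and 3 below. What set these libraries apart was not tested.

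Without both of these libraries, the differentiation contrast called 18 of 30 members, against 50.7% of all genes; 7 were higher, against 24.9% of all genes, and 11 lower, against 25.7%. All 12 members called with them were called again. The 6 added were SLC1A4 (log2 fold change -1.49, adjusted p 3.52e-05), SLC38A6 (-1.42, adjusted p 0.00121), SLC3A2 (-1.01, adjusted p 0.000779), SLC6A11 (1.34, adjusted p 0.000673), SLC43A3 (1.10, adjusted p 0.00793) and SLC7A1 (0.58, adjusted p 0.0174). All 6 were among the members above or below in both of these libraries. The libraries were set aside after they stood apart in these data, so leaving them out narrows the spread of such members. The SE of SLC1A4 went from 0.507 to 0.18. These adjusted p-values are therefore descriptive, here and in every other fit without both libraries. The heavy chain SLC3A2 fell beside its light chain SLC7A5 in the fit without them, under the same limit. The silencing contrast called 0 of 30 members without these libraries, against 5.48% of all genes (2.17% higher, 3.31% lower).

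SLC3A2 can pair with 6 light chains of SLC7A: SLC7A5, SLC7A6, SLC7A7, SLC7A8, SLC7A10 and SLC7A11. On the RPKM scale SLC7A5 held 90.9, 75.8 and 91.3% of the summed light chain level in the ALI control, 95.4, 88.5 and 92.7% in the ALI silenced and 93.7, 95.2 and 95.3% in the monolayer libraries. The share of SLC7A11 was 2.05, 17.8 and 1.01%, then 0.631, 7.2 and 1.87%, then 1.53, 0.888 and 0.835% in the same order. The low shares of SLC7A5 and the high shares of SLC7A11 were those of the libraries numbered 2. SLC7A6 held 2.20 to 4.64% and SLC7A8 1.16 to 3.03% over the 9 libraries, and SLC7A7 and SLC7A10 were at or near 0. The ratio of SLC7A5 to SLC3A2 in RPKM was 1.60, 0.543 and 1.38 in the ALI control, 2.20, 0.921 and 1.68 in the ALI silenced and 1.69, 1.61 and 1.56 in the monolayer libraries. Both ratios below 1 were those of the libraries numbered 2. RNA shares say nothing of the proteins that pair.

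The deposited rows of SLC3A2 split by their start. Rows of the 3 coding transcripts with the upstream start (from hg19 chr11:62623484) held 41.7, 20.2 and 38.6% of SLC3A2 counts in the ALI control, 54.2, 20.7 and 43.1% in the ALI silenced and 5.55, 13.1 and 6.81% in the monolayer libraries. Every ALI library was above every monolayer library, and the lowest ALI shares were again those of the libraries numbered 2. The downstream coding row (from chr11:62648344) held 86.1 to 94.2% of counts in the monolayer libraries. This split was chosen after its values were seen and has no test. These rows share most of their exons, and how the authors divided shared reads between them is not given in the sources used here.

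**Figure D4:**
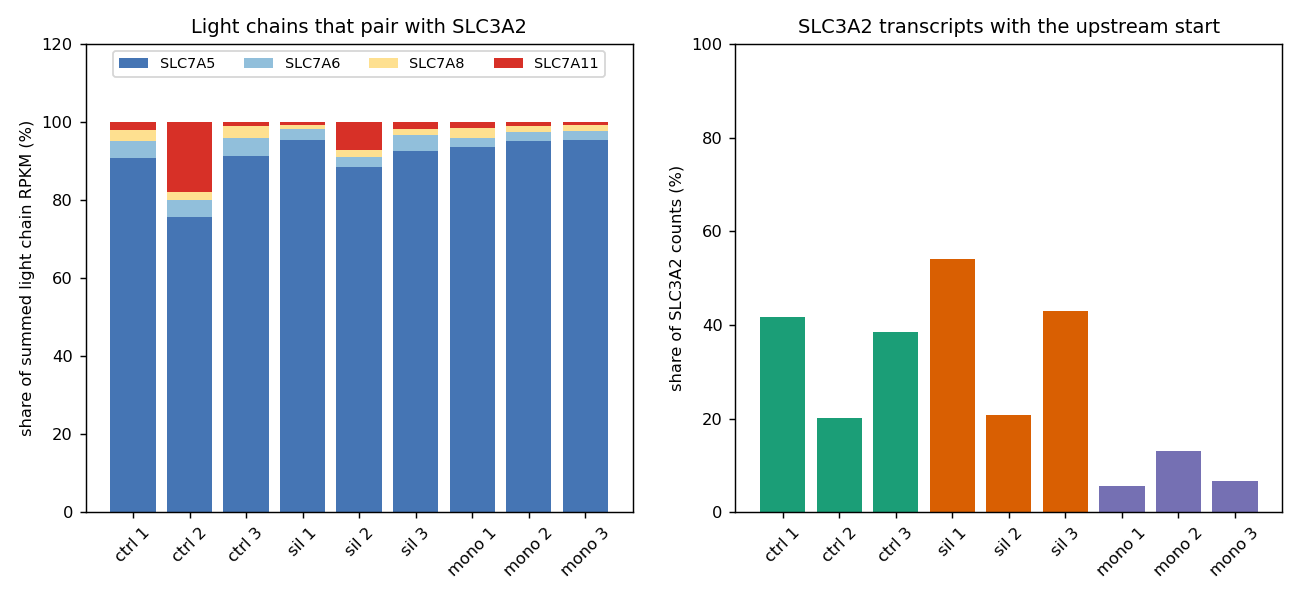
Left, share of the summed light chain RPKM held by SLC7A5, SLC7A6, SLC7A8 and SLC7A11, for the ALI control (ctrl), ALI silenced (sil) and monolayer (mono) libraries; SLC7A11 reaches 17.8% and 7.2% in the ALI libraries numbered 2. Right, percent of SLC3A2 counts in the rows with the upstream start, at 20.2 to 54.2% in the ALI and 5.55 to 13.1% in the monolayer libraries.

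Gene lists of the wider amino acid pathway are given for comparison. In the fit of all libraries, their counts are to be read against 20.3% of all genes higher and 20.2% lower for differentiation. For silencing, these shares of all genes were 0.226% higher and 0.703% lower. Of 13 tested carriers outside the 7 families, silencing changed 2. SLC15A1, a proton-coupled peptide carrier, was at 23.8, 16.3 and 16.8 CPM in the ALI control and at 2.90, 1.99 and 3.86 CPM in the ALI silenced libraries, and the log2 difference was -2.71 (SE 0.331, adjusted p 0.00583). SLC15A3, a lysosomal peptide carrier, was at 1.21, 1.14 and 1.27 CPM and at 13.8, 3.09 and 7.84 CPM, and the log2 difference was 2.76 (SE 0.511, adjusted p 0.0384). The SLC15A3 call did not hold without any 1 of the ALI control, monolayer or ALI silenced libraries 1 and 3, with adjusted p from 0.0635 to 0.157, and was kept without ALI silenced library 2. Differentiation raised 2 of these 13 (15.4%) and lowered 3 (23.1%), with log2 fold changes of 6.42 for SLC15A1 (adjusted p 5.36e-06), -2.03 for SLC15A3 (adjusted p 0.0104) and -1.30 for the mitochondrial carrier SLC25A29 (adjusted p 0.00805). Without ALI control library 1, monolayer library 1 or monolayer library 3 it raised 1 and lowered 2 of them. The median log2 fold change of this list was 0.01 for silencing and 0.07 for differentiation.

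Silencing changed 1 of 35 tested genes of amino acid synthesis and breakdown, with a median log2 fold change of -0.01. HAL, which starts histidine breakdown and makes urocanic acid in cornified epithelium, was at 18.1, 17.3 and 16.0 CPM in the ALI control and at 0.748, 0.412 and 0.468 CPM in the ALI silenced libraries. The groups were far apart, and the log2 difference was -4.96 (SE 0.505, adjusted p 0.00246). Differentiation raised 9 of the 35 (25.7%, against 20.3% of all genes) and lowered 0 (against 20.2%), with a median log2 fold change of 0.38. It raised 5 without monolayer library 1. Without both ALI libraries numbered 2, silencing lowered 3 of the 35, against 3.31% of all genes in that fit. There differentiation raised 15 and lowered 3, against 24.9% of all genes higher and 25.7% lower. Without ALI control library 2 alone, silencing lowered 2. HAL rose by 5.97 (adjusted p 3.13e-05) and PRODH, the first enzyme of proline breakdown, by 4.23 (adjusted p 0.000218) on the log2 scale. ARG1, which splits arginine to ornithine and urea, was at 6.16, 57.5 and 5.71 CPM in the ALI control and had no count in the monolayer libraries (adjusted p 0.00263).

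Of 32 tested genes of amino acid sensing to mTORC1 (33 of 35 matched), silencing changed 0 and differentiation raised 5 (15.6%) and lowered 1 (3.12%). Of 20 tested GCN2 and ATF4 response genes silencing changed 0 and differentiation raised 3 (15%) and lowered 3 (15%). Silencing changed 0 of 20 cytosolic tRNA synthetases and differentiation raised 7 (35%, against 20.3% of all genes) and lowered 0 (against 20.2%), with a median log2 fold change of 0.76. The 7 raised became 4 without ALI control library 2 and 3 without any 1 monolayer library. Silencing changed 0 of 11 cystine and glutathione genes, and 3 rose and 3 fell with differentiation (27.3% each). Without both ALI libraries numbered 2, silencing lowered 2 mTORC1 genes, raised 1 response gene and raised 4 of 10 cell cycle genes. These counts stand against 2.17% of all genes higher and 3.31% lower in that fit. The fit of all libraries called 0 in each list for silencing. In the fit without both ALI libraries numbered 2, differentiation raised 6 and lowered 5 mTORC1 genes and raised 5 and lowered 5 response genes. It raised 9 synthetases and 8 of 10 cell cycle genes there, against 24.9% of all genes higher and 25.7% lower. Without ALI silenced library 2 alone, silencing lowered 1 mTORC1 gene, as it did in the DESeq2 test. DESeq2 and both limma fits called 1 response gene higher for silencing, and both limma fits called 3 synthetases higher for differentiation. Among those that rose with differentiation were the mTOR inhibitor DEPTOR (log2 fold change 3.30, adjusted p 0.0071), RRAGD, a Rag GTPase (2.86, adjusted p 0.0366), FNIP2, a folliculin partner (1.86, adjusted p 0.047), ASNS (3.19, adjusted p 0.0253) and the glutathione-degrading CHAC1 (2.17, adjusted p 0.0467). The synthetases FARSB (1.54, adjusted p 0.000538), EPRS (1.49, adjusted p 0.0348) and NARS (1.35, adjusted p 0.0317) also rose, as did GGCT, an enzyme of the glutathione cycle (2.07, adjusted p 0.00425). The leucine sensor SESN2 (-1.29, adjusted p 0.0154) and GGT1, which cleaves glutathione outside the cell (-2.10, adjusted p 0.00968), fell.

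Several of these list calls did not hold when 1 library was left out. Without ALI control library 2 the adjusted p was 0.145 for ASNS, 0.149 for CHAC1, 0.109 for RRAGD, 0.186 for FNIP2, 0.116 for EPRS and 0.0774 for NARS. Without any 1 monolayer library the same 6 genes had an adjusted p of 0.0706 to 0.133. Without both ALI libraries numbered 2 all 6 passed, with an adjusted p from 7.41e-05 (ASNS) to 0.00823 (NARS) and log2 differences of 1.58 for ASNS, 1.73 for CHAC1, 2.20 for RRAGD, 1.22 for FNIP2, 0.72 for EPRS and 0.62 for NARS. Without ALI control library 1 the adjusted p was 0.0634 for CHAC1, 0.0536 for RRAGD and 0.0531 for SESN2, and without ALI control library 3 it was 0.0585 for CHAC1 and 0.0509 for FNIP2.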

How the data were processed

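RNA was sequenced as polyA-selected, stranded libraries, per the labels' protocols. The deposited tables give, per transcript row, a read count and an RPKM value made by the authors. As deposited, counts are raw whole numbers. RPKM values were summed over the rows of a gene and used for levels between genes. Build hg19 and the tools Bowtie, MACS2 and STAR 2.4.2a stand in the submitters' processing notes, which state no role for any. Which program and annotation were used for counting, and whether by strand, is not given in the sources used here.

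Counts of rows with the same symbol and chromosome were summed over primary chromosomes (23430 genes). Rows naming several genes, 511 of 29800, matched no member and held at most 0.554% of a library. edgeR 4.0.16 in R 4.3.3 tested 12806 genes kept by filterByExpr: TMM scaling, a robust quasi-likelihood fit of all 9 libraries (6 residual degrees of freedom), and Benjamini-Hochberg adjustment over all genes of a contrast with a threshold of 0.05. SE and 95% intervals came from the F statistic. Where a group had 0 counts, the fold is given against 3 counts over that group, without the counting error of the other group. The script was tested on simulated data. Alternatives used DESeq2 1.42.0, limma 3.58.1 on log2 RPKM, other filters and scalings, a replicate block, and fits without single libraries. Monolayer libraries 2 and 3 were closer than other pairs but differed beyond sampling noise (chi-square per degree of freedom 1.86, against 15.9 to 150.2 for other pairs within a group), and were kept as 2.

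Named with values were members past the threshold in either contrast, members with at least 10 CPM in their highest group, and SLC3A1, SLC3A2, SLC7A5 and SLC7A11. SLC43A3 was given besides, outside this rule. At most 3 genes per related list and contrast were named, and marker genes and genes overlapping a member were named besides. The members and lists were chosen with earlier results of these data known.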

Additional observations from a re-analysis of the deposited data

How the results depend on the processing

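Of the 2 comparisons, 0 members passed for silencing in every alternative except the DESeq2 Wald test, which called 1, and the 12 members called for differentiation became 9 to 18 over the 19 alternatives (9 to 15 when 1 library was left out). Over all genes the silencing count of 119 was 415 with DESeq2, 59 with only the ALI groups in the fit, 708 without both ALI libraries numbered 2, 79 with monolayer libraries 2 and 3 summed, and 28 to 236 when 1 library was left out; the cause was not tested.

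The replicate numbers did not pair the samples throughout. Correlations of same-numbered deviations were 0.495, 0.577 and -0.006 between ALI groups, and -0.156, -0.217 and -0.013 between ALI control and monolayer. ALI control library 3 and ALI silenced library 1 correlated at 0.637. Whether ALI libraries shared a culture or day, under these or other numbers, is not stated. With a replicate block, 0 members passed for silencing and 14 for differentiation, and 176 and 5132 of all genes.

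Among the members and contrasts printed with a fold change, directions reversed for SLC7A11, SLC38A2, SLC1A5 and SLC3A2. When 1 library was left out, the silencing log2 fold change ranged from -1.96 to 1.79 for SLC7A11, -0.63 to 0.24 for SLC38A2, -0.18 to 0.57 for SLC1A5 and -0.19 to 0.77 for SLC3A2, and the differentiation log2 fold change from -0.22 to 0.13 for SLC1A5, -0.16 to 0.71 for SLC38A2 and -0.68 to 1.95 for SLC7A11. With both ALI libraries numbered 2 removed, SLC7A11 was at 0.152 and SLC38A2 at 0.101 for silencing, and at -0.68 and -0.16 for differentiation. Limma on log2(RPKM + 1) and log2(RPKM + 0.1) gave 0.062 and 0.092 for SLC7A11 in silencing. For SLC1A5 in differentiation, DESeq2 size factors gave 0.023, the DESeq2 test 0.020, only the 2 groups 0.023, no filter 0.003 and a stricter filter 0.009. The cause was not tested.

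Levels near 1 CPM rest on few counts, and 3 libraries a group limit what can be called: the 95% interval of SLC7A11 for silencing was -2.88 to 2.24.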
